A study of Homo sapiens with 64 samples.

Results

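The genes described here are CRISPLD2, TSC22D3, FKBP5, GLUL, TFCP2L1, MT2A, ZBTB16 and ERRFI1, 8 genes that glucocorticoids are known to induce, asked about in airway epithelial cells that were given drugs acting on cyclic AMP (cAMP). Of 19775 genes with a probe set of their own, these 8 were taken as every array probe set that the platform annotation gave to 1 of the 8 symbols, which was 18 of 54613 probe sets tested, and none of the 18 was shared with another symbol. CRISPLD2 had 2 probe sets, TSC22D3, FKBP5 and TFCP2L1 had 3 each, GLUL had 4, and MT2A, ZBTB16 and ERRFI1 had 1 each. The genes were chosen by their known induction by glucocorticoids together with the response to indacaterol measured on these arrays. The differences between indacaterol and vehicle, and between both drugs and vehicle, are therefore given as descriptions, with no p-value. Nothing is read from how many of them passed a threshold. The arrays with both drugs were also known when the list was made. Other comparisons that use those arrays, and their p-values, are therefore not independent of the choice either. The same holds for comparisons that use the vehicle arrays, such as vehicle at later times against 1 h, since these arrays entered the choice.

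RNA was measured on 64 arrays, 4 replicates in each of 16 groups, from BEAS-2B, a line of immortalised cells from human bronchial epithelium. Confluent cells received both drugs together (10 nM indacaterol and 10 nM GSK 256066), 10 nM indacaterol, 10 nM GSK 256066 or vehicle, for 1, 2, 6 or 18 h. The beta2-adrenoceptor agonist indacaterol is an inhaled bronchodilator with long action, and GSK 256066 is an inhibitor of phosphodiesterase 4, which degrades cAMP. No group is labelled with a glucocorticoid, cAMP itself was not measured, and all groups shared a serum-free keratinocyte medium that had held epidermal growth factor and bovine pituitary extract until the last day before treatment. Nothing in the labels says that replicates were separate cultures, so p-values measure the spread between these arrays, and 4 arrays per group limit the precision.

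A glucocorticoid binds its receptor in the cytosol, and the receptor then enters the nucleus, binds DNA at glucocorticoid response elements and switches on genes that restrain inflammation in the airway epithelium. A beta2-agonist acts on another route: its receptor drives adenylyl cyclase, cAMP activates protein kinase A, and the kinase phosphorylates CREB, a factor that binds cAMP response elements. Some genes answer to both routes, and the combination of the drug classes is used in asthma and chronic obstructive pulmonary disease. The comparison asked which of the 8 genes a beta2-agonist raised with no added steroid.

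Among the 8 genes, CRISPLD2 was the 1 whose signal passed the test when indacaterol was added to GSK 256066. It passed at 2 and 6 h, through 1 of its 2 probe sets, with the higher signal where indacaterol was added. The arrays with both drugs were known when the list was made, so this pass and its p-values are not independent of that list. ERRFI1 and ZBTB16 had smaller differences in the same direction on every replicate number at 2 h, and so did MT2A and FKBP5 224856_at. The share of all probe sets that did so was not counted. In this comparison the estimates for FKBP5, GLUL and TFCP2L1 were at most 0.244 on the log2 scale either way. The intervals of GLUL and TFCP2L1, given below, were wide, so larger changes are not excluded. The main test, which has no block for the replicate number, called CRISPLD2 alone of the list, labelled genes raised by cAMP. The other genes were not called, which does not show that they were unchanged. With replicate number as a block, in a comparison where the numbers paired the arrays, ERRFI1 passed as well at 2 h (limma, adjusted p = 0.00647). ZBTB16 passed with the block at 6 h (limma, adjusted p = 0.00296). There the numbers fell just short of the pairing rule given with the methods (r from 0.0751 to 0.66, where the rule asks for above 0.1). The share of all probe sets called with the block at 6 h is not given.

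Signals are the deposited linear probe-set intensities, and log2 differences were taken after adding 16 to each signal, so the changes of dim probe sets are understated. Standard errors (SE) come from one limma model over all 64 arrays, and a call is an adjusted p under 0.05 (Benjamini-Hochberg, over the 54613 probe sets). The levels of different probe sets are not comparable with each other, since each has its own binding efficiency. Median signal per array ran from 101.2 to 127.4. Of the airway epithelial markers, the keratins KRT8 and KRT18 had mean signals of 6080 and 8190 on the 16 replicate 3 arrays and 4520 and 7610 on the other 48. The basal keratins KRT14 and KRT5 had 331000 and 32700 in replicate 3, against 24.0 and 165 elsewhere, and KRT7 had 6790 against 1210. CDH1 and EPCAM, which define epithelium, had 1160 and 178 in replicate 3, against 229 and 75.8 elsewhere. Of 7 measured fibroblast markers, 5 had a higher mean in replicate 3, among them DCN (192 against 125). The fibroblast collagen COL1A1 had 6800 against 9170, and PDGFRB 964 against 2010. Of 5 measured leukocyte markers, 4 were higher in replicate 3, among them PTPRC (30.8 against 29.3) and CD14 (195 against 85).

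The arrays of replicate 3, which cover every treatment and time, stood apart in several of these genes. For 10 of the 18 probe sets, those of FKBP5, GLUL and TFCP2L1, all 16 replicate 3 arrays lay above all 48 others, while 1.17% of all probe sets did so. TFCP2L1 probe set 227642_at ran from 536.5 to 1052 in replicate 3 and from 25.26 to 152.3 elsewhere, a log2 difference of 3.09. GLUL 217202_s_at and 200648_s_at differed by 1.75 and 1.70, and FKBP5 224840_at by 0.52. CRISPLD2 221541_at ran the other way, with a mean of 616 in replicate 3 and 863 elsewhere (log2 difference -0.51), and replicate 1 was the highest there, at 1220. All 8 measured airway epithelial markers of 9 listed were also higher in replicate 3, where their summed signal ran from 322000 to 472000, against 8730 to 20000 on the other arrays, a sum that in replicate 3 is mostly KRT14. The highest signal of any probe set on an array was 265800 to 1082000 in replicate 3, against 16840 to 18910 on the others. KRT19 was near 0 outside replicate 3 (mean 22.0, lowest 0.00396). The summed fibroblast markers, mostly COL1A1, ran from 7160 to 10400 in replicate 3 and from 8680 to 13600 elsewhere. The leukocyte sum ran from 606 to 996 in replicate 3 and from 471 to 762 elsewhere. The part of this in the results was not tested, and results are given with and without replicate 3 below. Its arrays are balanced over the 16 groups.

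**Figure D1:**
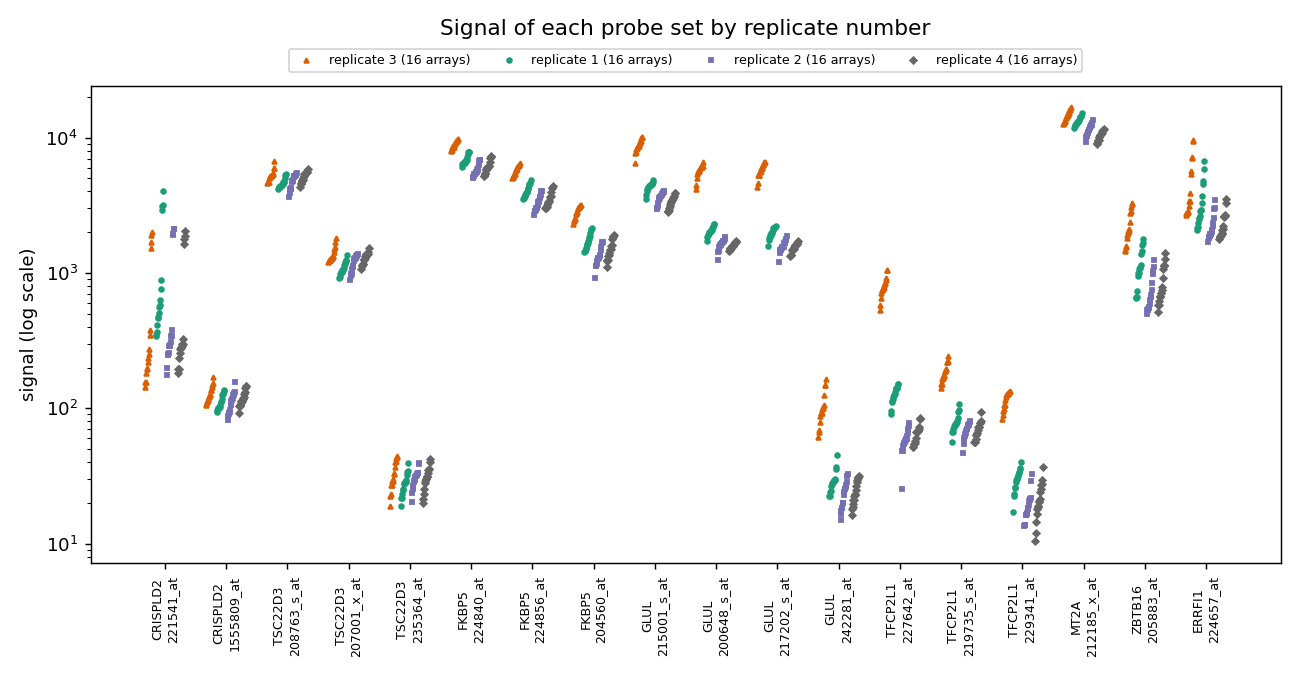
Signal (log axis) of each of the 18 probe sets on all 64 arrays, 16 arrays for each replicate number, sorted by signal within a replicate, with replicate 3 in orange triangles. The orange arrays of FKBP5, GLUL and TFCP2L1 lie above all others, while CRISPLD2 221541_at spreads widely within every replicate.

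CRISPLD2 encodes a secreted protein of the cysteine-rich CAP family that binds lipopolysaccharide. Its probe set 221541_at was 2.39 ± 0.36 (log2 difference ± SE, n = 4 per group) higher with both drugs than with GSK 256066 at 2 h and 2.65 ± 0.36 higher at 6 h. The other CRISPLD2 probe set, 1555809_at, gave -0.10 ± 0.15 and 0.08 ± 0.15.

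At 1 h the signal of CRISPLD2 221541_at was 461.6, 249.9, 156.9 and 273.9 with both drugs (replicates 1 to 4), against 368.6, 247.9, 193.7 and 289.0 with GSK 256066. With indacaterol alone it was 472.7, 290.9, 155.5 and 282.4, against 350.0, 197.0, 143.3 and 256.5 with vehicle. The groups overlapped throughout at this time, and the difference between both drugs and GSK 256066 was -0.01 (95% interval -0.74 to 0.72).

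At 2 h the signal of CRISPLD2 was 2914, 1928, 2000 and 1638 with both drugs, against 636.4, 292.8, 377.4 and 298.0 with GSK 256066. With indacaterol alone it was 3118, 1910, 1902 and 1797, against 342.4, 309.8, 233.5 and 194.3 with vehicle. Every array that had received indacaterol stood above every array that had not. The share of all probe sets that did so was not counted, and the separation of indacaterol from vehicle was known when CRISPLD2 was chosen. For the narrower comparison, 2.59% of all probe sets had every array with both drugs above every array with GSK 256066. The mean signal was 2120 ± 552.2 with both drugs and 401.1 ± 161.5 with GSK 256066 (SD, n = 4), a ratio of 5.29. The 95% interval of the log2 difference was 1.66 to 3.13 (limma, adjusted p = 3.58e-05), and the 4 same-numbered differences were 2.17, 2.66, 2.36 and 2.40. By size this was the 9th of the 54613 log2 differences at 2 h.

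At 6 h the signal of CRISPLD2 was 4012, 2119, 1688 and 1873 with both drugs, against 577.0, 340.1, 273.5 and 278.1 with GSK 256066. With indacaterol alone it was 3175, 2095, 1517 and 2039, against 415.3, 254.2, 220.2 and 236.2 with vehicle. Again no array overlapped between cells with and without indacaterol, and the share of all probe sets that did so was not counted. For the narrower comparison, 2.04% of all probe sets had every array with both drugs above every array with GSK 256066. The mean was 2423 ± 1074 with both drugs and 367.2 ± 143.2 with GSK 256066, a ratio of 6.60, and the interval was 1.92 to 3.38 (limma, adjusted p = 8.28e-06). This was the 2nd greatest log2 difference of all probe sets at 6 h. The call was lost when the model was fitted to these 2 groups alone, at the same difference (limma, adjusted p = 0.0528).

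At 18 h the signal of CRISPLD2 was 888.5, 378.5, 349.9 and 325.7 with both drugs, against 504.7, 289.7, 199.5 and 196.4 with GSK 256066. With indacaterol alone it was 764.8, 342.2, 253.6 and 298.1, against 561.8, 175.1, 183.6 and 182.0 with vehicle. Both drugs were higher than GSK 256066 on 4 of 4 replicate numbers, by 0.65 ± 0.36, but the groups overlapped and the difference did not pass (interval -0.08 to 1.39; limma, adjusted p = 1, unadjusted 0.0789).

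**Figure D2:**
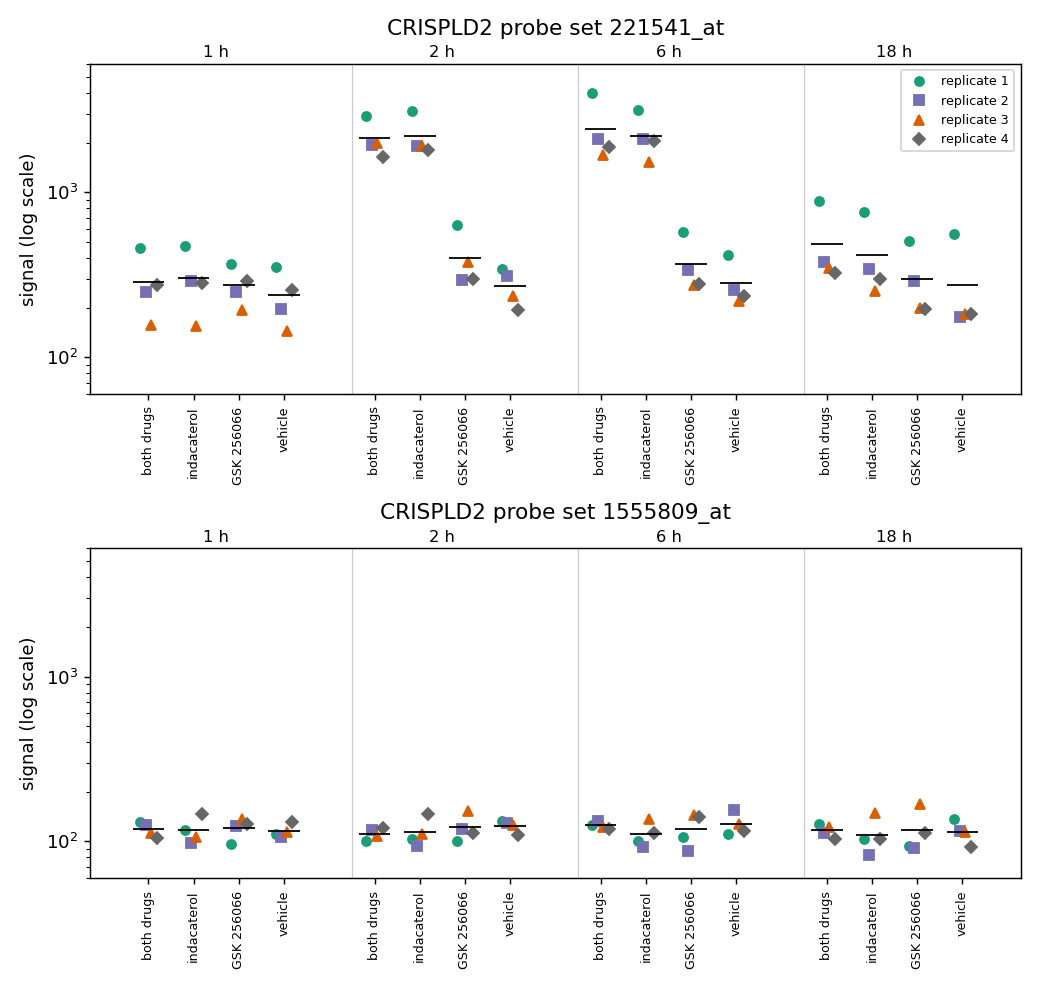
Signal (log axis) of the 2 CRISPLD2 probe sets on each of the 64 arrays, by time and treatment, with symbols for the replicate number and a bar at the mean of 4 arrays. In 221541_at the arrays with indacaterol, alone or with GSK 256066, run from 1517 to 4012 at 2 and 6 h, above all others, and 1555809_at runs from 82.19 to 169.3 over the whole series.

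Without replicate 3 the differences of 221541_at were 2.41 at 2 h (limma, adjusted p = 0.000662) and 2.68 at 6 h (adjusted p = 0.000395), and leaving out any other single replicate number kept both calls. The difference varied between times: it was greater by 2.40 at 2 h, by 2.65 at 6 h and by 0.66 at 18 h than at 1 h (limma moderated F-test over the 4 times, adjusted p = 0.00769). The F-test called 0.0586% of all probe sets and 1 of the 18. That call was lost without replicate 2, 3 or 4 (adjusted p = 1, 0.0524 and 0.587) and kept without replicate 1 (adjusted p = 2.41e-07).

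The differences of 221541_at between indacaterol and vehicle, through which CRISPLD2 entered the list, were 0.30, 2.94, 2.89 and 0.61 at 1, 2, 6 and 18 h. Those between both drugs and vehicle, with the same vehicle arrays, were 0.23, 2.90, 2.99 and 0.84. With both drugs against indacaterol alone the difference was -0.04 at 2 h (interval -0.77 to 0.70) and 0.10 at 6 h (-0.64 to 0.83), so a change of over 0.83 either way lay outside both intervals. GSK 256066 alone gave 0.23, 0.51, 0.34 and 0.18 against vehicle, none called. The interaction of the drugs was -0.54 at 2 h (-1.58 to 0.49) and was called at no time.

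The probe sets of CRISPLD2 gave different values on the same arrays. Signal of 1555809_at ran from 82.19 to 169.3 over all 64 arrays. Its mean of 118 lay at percentile 49.5 of all probe sets, and no detection calls were used. Whether it reads CRISPLD2 RNA in these cells was not tested. The gap, the log2 value of 221541_at minus that of 1555809_at, has no meaning as a level and serves only for its change between groups. At 2 h it was 4.04 ± 0.45 with both drugs and 1.54 ± 0.62 with GSK 256066 (SD, n = 4). At 6 h it was 4.03 ± 0.55 with both drugs and 1.46 ± 0.70 with GSK 256066. The change of the gap, 2.49 at 2 h and 2.57 at 6 h, had p = 0.0286 at each time (exact two-sided permutation test over arrays), the smallest value 4 against 4 arrays allow, and an adjusted p = 0.0571 over the 4 times. At 1 and 18 h the change was 0.02 and 0.62 (exact permutation p = 0.971 and 0.257). The arrays with both drugs were known when CRISPLD2 was chosen, so the p-values of the gap are not independent of that choice. Since 1555809_at changed little between these groups, the change of the gap mostly repeats that of 221541_at. Between indacaterol and vehicle the gap changed by 0.29, 3.06, 3.08 and 0.68. The sequences of the probes and the part of the gene each one reads were not analysed here.

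The promoter of CRISPLD2 is shown because this gene was the 1 called in the main test. Also shown is 1 of the promoters of TSC22D3, which held the most matches to the CREB core motif among the promoters of the list. Both run 250 bases before to 50 bases after a start site in RefSeq (GRCh38.p14), at chr16:84819735-84820034 on the plus strand and chrX:107717013-107717312 on the minus strand, and capitals mark the core TGACG.
CRISPLD2: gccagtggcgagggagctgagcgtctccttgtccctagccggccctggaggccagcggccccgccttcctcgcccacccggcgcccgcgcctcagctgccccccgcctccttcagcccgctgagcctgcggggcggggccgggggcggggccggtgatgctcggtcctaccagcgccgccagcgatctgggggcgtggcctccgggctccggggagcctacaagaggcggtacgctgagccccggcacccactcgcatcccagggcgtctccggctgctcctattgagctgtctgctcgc
TSC22D3: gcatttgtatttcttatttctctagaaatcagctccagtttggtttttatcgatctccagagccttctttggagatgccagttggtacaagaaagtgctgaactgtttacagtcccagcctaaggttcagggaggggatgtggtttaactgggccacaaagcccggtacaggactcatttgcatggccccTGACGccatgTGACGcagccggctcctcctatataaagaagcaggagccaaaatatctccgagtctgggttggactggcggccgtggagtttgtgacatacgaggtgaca

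RefSeq promoters were matched for 7 of the 8 genes, 12 in all, with ZBTB16 unmatched. Both strands were searched for the full cAMP response element TGACGTCA, its core TGACG, the full glucocorticoid response element (AGAACA and TGTTCT with 3 bases of any kind between them) and the single site TGTTCT, where each short motif is also found inside its full element. The full elements were found in 0 of the 12 promoters, and in 1.85% and 0.00285% of all 35116 promoters of this length. The core TGACG was found 4 times, in TSC22D3 only. In the promoter above it stood at bases -60 to -56 and -50 to -46 from the start site. The share of all promoters with any match was 24.6%. The 4 are matches rather than promoters, and TSC22D3 had the most promoters of the list, so no excess is read from them. The single site TGTTCT was found once, in FKBP5, at bases 1 to 6 after the start site, and in 14.8% of all promoters. A TATA box (TATAAA) stood at -29 to -24 in TSC22D3 and in MT2A, and in 11.5% of all promoters. The CRISPLD2 window held none of these letters, which says only that they are not in these 300 bases.

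Over the whole list, indacaterol added to GSK 256066 gave 0, 1, 1 and 0 calls of 18 at 1, 2, 6 and 18 h, all higher and all CRISPLD2 221541_at. Of all probe sets 0.0732%, 0.729%, 0.244% and 0% were called. An unadjusted p under 0.05 was reached by 1, 1, 1 and 0 of the 18. The median difference of the 18 was 0.001, 0.11, 0.094 and 0.024, beside -0.026, 0.048, 0.001 and 0.021 over all probe sets. Positive values numbered 9, 14, 16 and 14 of 18. The share of positive values over all probe sets was not counted, and several of the 18 read the same gene, so no rise of the list is read from this. These arrays are not those of indacaterol against vehicle, but those with both drugs were also known when the list was made. The counts and the p-values of this comparison therefore describe the list and are not independent of how it was made.

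**Figure D3:**
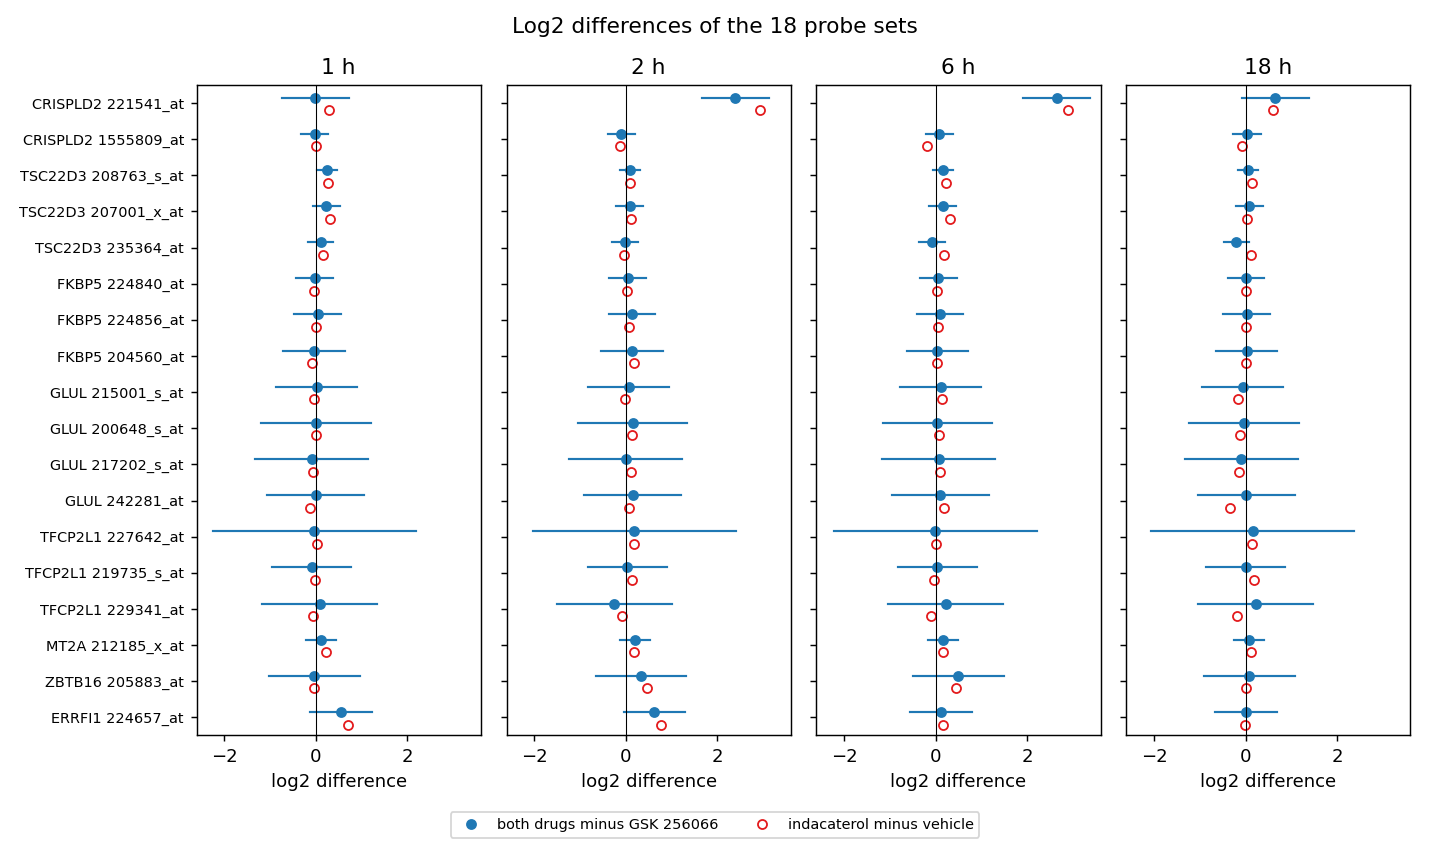
Log2 differences of the 18 probe sets at each time, as both drugs minus GSK 256066 (blue, lines are 95% intervals from the limma model) and as indacaterol minus vehicle (red, open, shown without an interval as a description). CRISPLD2 221541_at stands at 2.39 and 2.65 at 2 and 6 h in blue, and the blue points of the other probe sets lie between -0.24 and 0.63.

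The comparison of both drugs with indacaterol alone, that of GSK 256066 with vehicle and the interaction each gave 0 calls among the 18 at all 4 times with limma (0% of all probe sets in each). None of the 18 reached 0.05 before adjustment either, and with replicate number as a block 0 of the 18 were called. Differences between both drugs and indacaterol ran from -0.18 to 0.23 over the 18 probe sets and 4 times. GSK 256066 shares its vehicle arrays with the comparison that made the list, and gave -0.35 to 0.51. For the comparisons that the choice of genes used, the counts are given only as a record, since the choice fixed them. At the same threshold indacaterol against vehicle had 0, 1, 1 and 0 of the 18 (0.174%, 0.938%, 0.172% and 0% of all probe sets), and both drugs against vehicle also had 0, 1, 1 and 0 (0.198%, 0.751%, 0.485% and 0.00732%).

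ERRFI1 encodes MIG6, an inhibitor of the epidermal growth factor receptor. At 1 h its probe set 224657_at gave 5903, 3044, 9586 and 3548 with both drugs, against 3711, 2359, 5647 and 2642 with GSK 256066. With indacaterol alone it gave 6683, 3449, 9523 and 3292, against 3277, 2209, 5385 and 2583 with vehicle. Within each replicate number the arrays with indacaterol were the higher ones, and replicate 3 was the highest in every group, so the groups overlapped. The difference between both drugs and GSK 256066 was 0.55 ± 0.33 (limma, adjusted p = 1; higher on 4 of 4 replicate numbers).

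At 2 h ERRFI1 gave 4783, 2547, 7176 and 2645 with both drugs, against 2903, 1810, 3930 and 1948 with GSK 256066, a difference of 0.63 ± 0.33. Same-numbered differences were 0.72, 0.49, 0.87 and 0.44, and the difference was 0.55 without replicate 3. It did not pass the test (limma, adjusted p = 0.63), and did so with replicate number as a block (adjusted p = 0.00647, and 0.0134 without replicate 3), where 2.8% of all probe sets were called. The replicate numbers paired the arrays of this comparison by the rule given with the methods. At 6 and 18 h the differences were 0.12 and 0.01. Between indacaterol and vehicle ERRFI1 differed by 0.71, 0.78, 0.16 and -0.01 at 1, 2, 6 and 18 h.

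ERRFI1 also gave lower values at later times in cells without indacaterol. With GSK 256066 its mean was 3590 ± 1490, 2648 ± 983.3, 2326 ± 437.4 and 2239 ± 410.3 at 1, 2, 6 and 18 h, and with vehicle 3364 ± 1418, 2410 ± 725.1, 2252 ± 441.7 and 2195 ± 436.4. The difference of 18 h from 1 h was -0.61 ± 0.33 with GSK 256066 and -0.55 ± 0.33 with vehicle, lower on 4 of 4 replicate numbers in each. Over time, 0 of the 18 probe sets were called against 1 h, beside 0.0476%, 0.352% and 1.43% of all probe sets at 2, 6 and 18 h with GSK 256066 and 0.123%, 0.846% and 1.16% with vehicle. Neither difference of ERRFI1 at 18 h passed (limma, adjusted p = 0.585 and 0.739), and both did with the block (adjusted p = 0.00577 and 0.0166, and 0.0286 and 0.0688 without replicate 3), where 6.03% and 5.38% of all probe sets were called. The same held for 6 h against 1 h, at -0.56 with GSK 256066 and -0.51 with vehicle (adjusted p = 0.0238 and 0.0311 with the block, and 0.133 and 0.181 without replicate 3), where 2.8% and 4.72% of all probe sets were called.

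Of the transcriptional regulators, ZBTB16, or PLZF, is a zinc finger repressor that glucocorticoids induce in many cell types. At 2 h its probe set 205883_at gave 1612, 1253, 3304 and 1270 with both drugs, against 1460, 666.9, 3054 and 1118 with GSK 256066. At 6 h it gave 1678, 1032, 2870 and 1063 with both drugs, against 1095, 744.5, 2050 and 789.1 with GSK 256066. Both drugs were higher on 4 of 4 replicate numbers at each time, but replicate 3 was far above the rest of its group and the groups overlapped. The differences were 0.33 ± 0.49 and 0.49 ± 0.49 (limma, adjusted p = 0.911 and 1), and 0.41 and 0.50 without replicate 3. At 1 and 18 h the values were -0.03 and 0.08. Indacaterol against vehicle gave -0.04, 0.48, 0.44 and 0.01 over the 4 times.

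ZBTB16 values also differed between times. With GSK 256066 its mean was 1058 ± 641.8, 1575 ± 1038, 1170 ± 607.4 and 835.9 ± 490.0 at 1, 2, 6 and 18 h, and with vehicle 1078 ± 646.7, 1413 ± 918.9, 1101 ± 523.4 and 804.8 ± 434.3. With GSK 256066 the difference of 2 h from 1 h was 0.52 ± 0.49, higher on 4 of 4 replicate numbers (limma, adjusted p = 0.834, and 0.00661 with the block, where 1.2% of all probe sets were called). With vehicle the difference of 18 h from 1 h was -0.38 ± 0.49, lower on 4 of 4 (adjusted p = 0.989, and 0.0204 with the block). With the block but without replicate 3 neither passed (adjusted p = 0.0693 and 0.146).

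**Figure D4:**
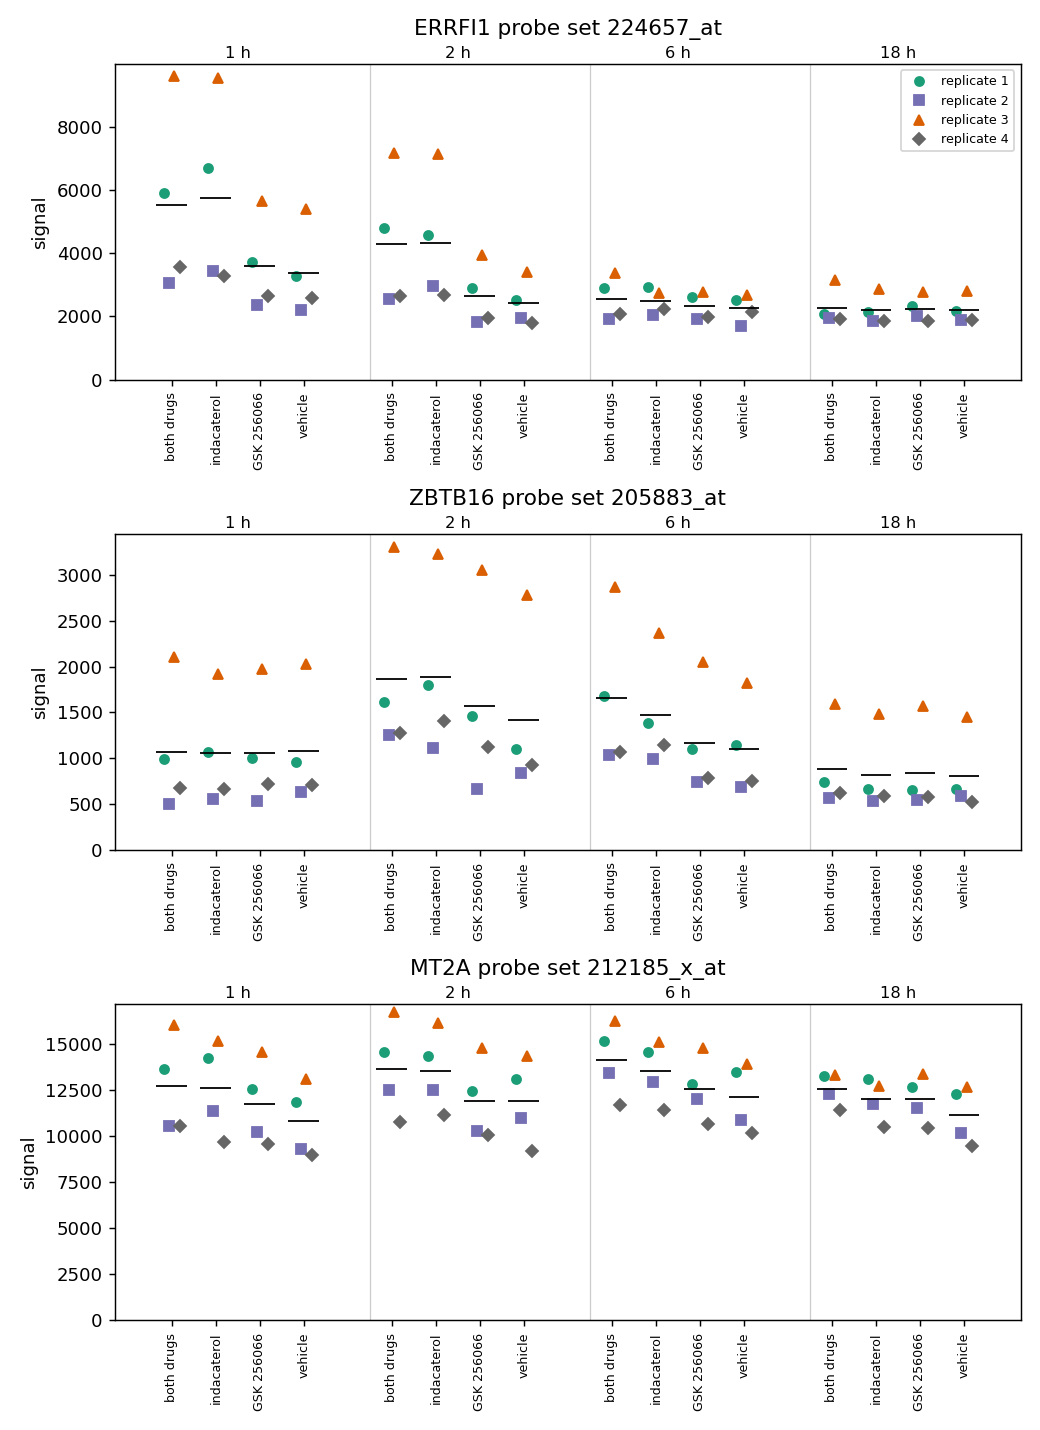
Signal (linear axes from 0) of ERRFI1, ZBTB16 and MT2A on each of the 64 arrays, by time and treatment, with symbols for the replicate number and a bar at the mean of 4 arrays. ERRFI1 stands higher with indacaterol, alone or with GSK 256066, at 1 and 2 h within every replicate number, while the replicates are far apart, and replicate 3 is the highest of its group for ZBTB16 at every time.

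TSC22D3 encodes GILZ, a leucine zipper protein that mediates part of the anti-inflammatory action of glucocorticoids. Its brightest probe set, 208763_s_at, gave 5375, 4774, 6735 and 5500 with both drugs at 1 h, against 4407, 3866, 5963 and 4754 with GSK 256066. The difference was 0.24 ± 0.11, higher on 4 of 4 replicate numbers, with overlapping groups (interval 0.02 to 0.46; limma, unadjusted p = 0.0307, adjusted p = 1). Its second probe set, 207001_x_at, gave 0.23 ± 0.15 at 1 h, also on 4 of 4 replicate numbers, and the dim 235364_at 0.10 ± 0.14. At 2, 6 and 18 h the 3 probe sets lay between -0.20 and 0.16. Without replicate 3 the value of 208763_s_at at 1 h was 0.27. Indacaterol against vehicle gave 0.26, 0.10, 0.22 and 0.14 for 208763_s_at at 1, 2, 6 and 18 h.

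TFCP2L1, a transcription factor of the grainyhead-like family, differed mainly between replicate 3 and the other replicates. At 2 h its probe set 227642_at gave 124.5, 58.39, 916.1 and 66.64 with both drugs, against 141.7, 25.26, 835.8 and 69.23 with GSK 256066. The difference was 0.19 ± 1.10 (limma, adjusted p = 0.981), and its interval was wide, from -2.02 to 2.41. Without replicate 3 it was 0.21. Over the 3 probe sets and 4 times the differences ran from -0.24 to 0.23, none called.

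FKBP5 encodes FKBP51, a co-chaperone of the glucocorticoid receptor that lowers its hormone binding and is itself a receptor target. At 6 h its probe set 224840_at gave 7850, 6848, 9641 and 7247 with both drugs, against 7522, 6747, 9394 and 6652 with GSK 256066. The groups overlapped and the difference was 0.06 ± 0.20 (interval -0.34 to 0.46). Differences of the 3 probe sets ran from -0.04 to 0.14 over the 4 times.

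The larger differences of FKBP5 were between times. The difference of 6 h from 1 h in 224840_at was 0.20 ± 0.20 with GSK 256066 and 0.19 ± 0.20 with vehicle, higher on 4 of 4 replicate numbers in each. In 224856_at it was 0.25 ± 0.25 and 0.26 ± 0.25, and in 204560_at 0.31 ± 0.33 and 0.23 ± 0.33. None of these passed (limma, adjusted p from 0.812 to 1). With the block, 224840_at (adjusted p = 0.0139 with GSK 256066 and 0.0195 with vehicle), 224856_at (0.0201 and 0.0136) and 204560_at with GSK 256066 (0.0415) did, and without replicate 3 they did not (adjusted p from 0.0552 to 0.0848).

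GLUL, glutamine synthetase, makes glutamine from glutamate and ammonia. At 2 h its brightest probe set 215001_s_at gave 4524, 3103, 8255 and 3460 with both drugs, against 4278, 3039, 8369 and 3036 with GSK 256066, with replicate 3 the highest in both. The difference was 0.07 ± 0.44 (interval -0.82 to 0.95). All 4 probe sets stayed between -0.09 and 0.15 over the 4 times, and none was called.

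MT2A encodes a metallothionein, a small protein that binds zinc and copper. Its probe set 212185_x_at gave 14540, 12470, 16740 and 10750 with both drugs at 2 h, against 12400, 10240, 14780 and 10030 with GSK 256066. Both drugs were higher on 4 of 4 replicate numbers at 1, 2 and 6 h, and the groups overlapped. The differences were 0.11, 0.20, 0.17 and 0.07 at 1, 2, 6 and 18 h, each ± 0.16, none called (limma, adjusted p = 0.805 at 2 h). The mean at 2 h was 13630 ± 2589 with both drugs and 11860 ± 2222 with GSK 256066. An x_at probe set can also bind RNA of the closely related metallothionein genes, so this signal is not certain to be of MT2A alone.

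Of 23 other glucocorticoid-inducible genes, listed with earlier results of these data known, 21 were measured. For these lists 1 probe set per gene, the brightest, was taken. With indacaterol added to GSK 256066, 2 of 21 rose at 1 h and 3 at 2 h, 0 were called at 6 and 18 h, and 0 fell, beside 0.106%, 0.794%, 0.248% and 0% of all genes called higher. SGK1, a kinase that regulates sodium channels, was called at both times, with differences of 1.92 ± 0.22 and 2.19 ± 0.22 (limma, adjusted p = 3.18e-07 and 4.63e-09). RGS2, which shortens G protein signalling, rose by 1.91 ± 0.28 and 1.96 ± 0.28 (adjusted p = 5.38e-05 and 9.11e-06). DUSP1, a phosphatase of MAP kinases, rose by 0.53 ± 0.12 at 2 h (adjusted p = 0.0131). The median of the 21 was 0.247, 0.321, 0.28 and 0.087 at 1, 2, 6 and 18 h, beside -0.025, 0.043, 0 and 0.027 over all genes. With the block, where the numbers paired the arrays (2 and 18 h), 8 of the 21 were called higher at 2 h, among them PDK4 (2.24), CDKN1C (1.42) and FOXO1 (1.01), and 1 at 18 h, PDK4 (1.14), beside 2.8% and 0.0385% of all probe sets called in either direction. Without replicate 3, SGK1, RGS2 and DUSP1 kept these calls.

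Of 9 measured metallothionein and zinc response genes, 0 were called in this comparison, and 2 were called higher with the block at 2 h: MT1M (1.27) and the zinc exporter SLC30A1 (0.46). Of 10 measured genes of the glucocorticoid receptor and its chaperones and cofactors, 0 were called, with or without the block. Of 11 measured cAMP-responsive genes, 2 rose at 1 h, 8 at 2 h and 1 at 6 h, and 0 were called at 18 h. Among these NR4A3, an orphan nuclear receptor, rose by 3.63 ± 0.57 at 2 h (limma, adjusted p = 7.6e-05). LINC00473, a non-coding RNA, was 2.68 ± 0.33 higher at 2 h (adjusted p = 4.82e-07), and 1.82 ± 0.33 higher at 6 h (0.00127). Without replicate 3 the calls of NR4A3 at 1 h (adjusted p = 0.24) and of the transcription factors CREM and FOSB at 2 h (adjusted p = 0.139 and 0.221) were lost.

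Genes alike in pattern were ranked by Pearson's r over the 16 group means, among 938 genes whose group means varied enough, as a description of groups that share replicate numbers. For CRISPLD2 they were PRR5L (0.977), STEAP4 (0.972), SLC7A2 (0.967), CFAP251 (0.964) and EVA1C (0.962). For ERRFI1 they were MYC (0.989), EDN1 (0.987) and PLK2 (0.984), for ZBTB16 LPAR1 (0.957), PHLDB2 (0.947) and DKK1 (0.943), and for FKBP5 AKAP1 (0.984), SECTM1 (0.946) and PIGM (0.943). The group means of CRISPLD2 had an SD of 1.27 on the log2 scale, those of ERRFI1 0.44 and ZBTB16 0.41, and those of the brightest probe sets of the remaining genes at most 0.12. For TSC22D3, GLUL, TFCP2L1 and MT2A the closest genes were GDF15 (0.83), PPP2R2B (0.778), KRT7 (0.724) and BAG1 (0.933).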

How the data were processed

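The authors deposited 1 intensity per probe set and array, linear and never negative, from biotin-labelled RNA hybridised to Affymetrix expression arrays. Per the submitters' processing notes, the tools included PLIER and Transcriptome Analysis Console 4, and their order and settings are not given in the sources used here. The deposited intensities had an upper quartile from 441.4 to 603.7 over the arrays and a far higher top end in replicate 3, the cause of which was not tested. The level of each value depends on summarisation and scaling by the authors. Detection calls were not used, and dim probe sets were judged by signal alone.

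From these, 62 control probe sets were left out and 54613 were fitted as log2(signal + 16) in one limma model (version 3.58.1 in R 4.3.3) with a mean for each of the 16 groups, 48 residual degrees of freedom (prior ones, median 3.65), two-sided, with Benjamini-Hochberg adjustment over all probe sets. A moderated F-test compared the 4 times. The gap between the CRISPLD2 probe sets was tested by exact permutation of arrays. The model was tested on simulated data. Symbols come from the platform annotation, updated through the gene ID.

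The genes, lists and comparisons were chosen with earlier results of these data known. Named genes were every probe set of the 8 genes, called members of the fixed lists, and, for each brightest probe set, the 3 genes (5 for CRISPLD2) closest in pattern among genes with an SD of group means of at least 0.25. Genes named as called with the block, and CDH1, EPCAM, KRT5, KRT7, KRT8, KRT14, KRT18, KRT19, PTPRC, CD14, COL1A1, DCN and PDGFRB, belong to the fixed lists.

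Replicate numbers recur in every group with no stated meaning. The numbers counted as pairing where, for all 4 of them, deviations from the group means on same-numbered arrays correlated above 0.1, a decision made without looking at the calls. By this rule 19 of 26 contrasts of 2 groups and 1 of 4 interactions were paired (r from -0.205 to 0.813 over all). Both drugs against GSK 256066 was paired at 2 and 18 h. Alternatives were the pseudocount (1 or 64), quantile normalization, a filter on dim probe sets, the brightest probe set per gene, a replicate block with and without replicate 3, a fit to the groups compared alone, and each replicate left out.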

Additional observations from a re-analysis of the deposited data

Results flagged for a closer look

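By Dixon's test at its 95% critical value, 31 of 288 groups of 4 arrays held an array far from the other 3, 27 of them in replicate 3. For a single group, chance alone gives a flag about 1 time in 20. The groups share arrays, replicate numbers and genes, so they are not independent, and the count does not measure an excess over chance.

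CRISPLD2 221541_at stood apart on the replicate 1 arrays. Its signal was 888.5 with both drugs at 18 h (others 325.7 to 378.5), 3118 with indacaterol at 2 h (1797 to 1910) and 561.8 with vehicle at 18 h (175.1 to 183.6). TSC22D3 207001_x_at was 1018 with GSK 256066 at 18 h in replicate 1, below the others at 1277 to 1292.

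The arrays that stood apart in the remaining genes were of replicate 3, each above the other arrays of its group. GLUL 215001_s_at was 8985, 9508 and 7862 with both drugs at 1, 6 and 18 h, where the other arrays reached at most 4189. GLUL 200648_s_at was 6106 and 4502 with both drugs at 1 and 18 h, and 6586 and 5689 with vehicle at 2 and 18 h, against at most 2021 on the other arrays. GLUL 217202_s_at was 5309 and 4293 with both drugs at 2 and 18 h, 5329 with GSK 256066 at 18 h, and 5945 and 6586 with vehicle at 1 and 2 h, against at most 2086. The dim GLUL 242281_at was 148.2 with both drugs at 6 h, 101.7 and 164.7 with GSK 256066 at 2 and 6 h, and 91.50, 88.36 and 124.6 with vehicle at 1, 2 and 6 h, against at most 35.73.

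TFCP2L1 227642_at was 1051 with both drugs at 18 h (others 54.20 to 91.28). TFCP2L1 219735_s_at was 245.4 with both drugs at 18 h, 173.8 with indacaterol at 6 h, 194.0 with GSK 256066 at 1 h and 168.2 with vehicle at 6 h, against at most 80.43. TFCP2L1 229341_at was 120.3 with both drugs at 2 h and 126.6 with indacaterol at 6 h, against at most 23.18. ERRFI1 was 3142 with both drugs at 18 h (others 1913 to 2076), and FKBP5 204560_at was 3020 with vehicle at 2 h (1268 to 1471).

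The difference of CRISPLD2 221541_at between both drugs and GSK 256066 changed with time: at 6 h it was 2.65 greater than at 1 h (limma moderated F-test over 4 times, adjusted p = 0.00769). The call was lost without replicate 2, 3 or 4 and kept without replicate 1, and it is not independent of how the list was made.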

How the results depend on the processing

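With indacaterol added to GSK 256066, 2 of the 72 tests of the 18 probe sets at 4 times were called. A block for the replicate number made this 4, both with all arrays and with replicates 1, 2 and 4. It added ERRFI1 at 2 h and ZBTB16 at 6 h (limma, adjusted p = 0.00296), and at 6 h the numbers fell short of the pairing rule. Fitted to the groups compared alone the count was 1. With the block, vehicle and GSK 256066 over time gave 6 each in place of 0 (1 each without replicate 3). For the comparisons that the choice of genes used, from which nothing is read, it gave 6 in place of 2 for indacaterol against vehicle (5 without replicate 3) and 9 in place of 2 for both drugs against vehicle (6 without replicate 3). At 1 and 6 h the numbers did not meet the pairing rule. There, indacaterol added to GSK 256066 with the block called 5 and 9 of the 21 other glucocorticoid-inducible genes in place of 2 and 0. Of the 11 cAMP-responsive genes it called 5 and 5 in place of 2 and 1. Of the 9 metallothionein and zinc response genes it called 0 and 1 in place of 0 and 0. The share of all probe sets called with the block at these times is not given, so nothing is read from these counts. The comparisons of both drugs with indacaterol and of GSK 256066 with vehicle, and the interactions, gave 0 under every alternative run. The count of the F-test over time lay between 0 and 1 when single replicates were left out. Pseudocounts of 1 and 64, quantile normalization, the filter on dim probe sets and 1 probe set per gene each left these counts within 1.5 times. No difference changed sign among those called. The causes were not tested.

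The 2 h difference of CRISPLD2 221541_at lay between 2.26 and 2.47 over 12 alternatives, all called (adjusted p up to 0.0355, without replicate 2), and the 6 h difference between 2.50 and 2.70, called in 11 of 12. With 3 arrays against 3, the exact test of the CRISPLD2 gap could not reach 0.05. Where same-numbered arrays differ little but replicates lie far apart, as in TFCP2L1 and GLUL, the intervals without a block are wide. With dim signals and no detection calls, a small difference in GLUL 242281_at, TSC22D3 235364_at or TFCP2L1 229341_at could not be seen.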
